A study of Mus musculus with 2 samples.

Results

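The genes followed here are 36 enzymes and hypoxia genes: the enzymes of glycolysis and of the pentose phosphate pathway, the enzymes that handle pyruvate and lactate, and targets of the transcription factor HIF-1. They were chosen by gene symbol from the 23282 rows of the count tables, and each symbol was present as a single row. Naïve CD4 T cells had been isolated from the spleens of *Fak* fl/fl mice, which were female and 6 to 8 weeks old, and transduced with a control retrovirus or with RV-Cre, a retrovirus that carries Cre recombinase. Both groups therefore carried the floxed *Fak* alleles and a viral vector with GFP, and they differed in Cre. The cells were cultured for 3 days on plates coated with an antibody to CD3ε (10 μg/ml), with an antibody to CD28 in solution (5 μg/ml), and with IL-6 (50 ng/ml), TGFβ1 (1 ng/ml), TNF-alpha (1 ng/ml), IL-1beta (2 ng/ml) and antibodies to IFNgamma and IL-4 (5 μg/ml each), and GFP+ cells were sorted. RNA-seq was performed on 1 library per group. WT is given as genotype of the control sample, whereas the title says that floxed cells received the control virus, and the title was followed. How many mice contributed to a library is not given in the sources used here. Cre expression and the loss of *Fak* cannot be told apart, since cells with Cre and no floxed allele were not analysed here.

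Activated T cells take up glucose and convert much of it to lactate, and Th17 cells are known for a strong dependence on this route. Glycolysis first spends ATP to turn glucose into triose phosphates, in the preparatory phase, and then regains ATP while turning these into pyruvate, in the pay-off phase. The pentose phosphate pathway branches off at glucose 6-phosphate, where it yields NADPH and ribose for nucleotides. HIF-1 is a dimer of HIF-1α and ARNT, is active in Th17 cells also at normal oxygen and switches on many glycolytic genes. The EGLN prolyl hydroxylases mark HIF-1α for degradation by VHL, and *Egln3* and *Egln1* are themselves HIF-1 targets.

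The libraries held 13799264 counted reads (control) and 12305010 counted reads (RV-Cre). *Ptk2*, the symbol of *Fak* in the tables, had 110 control reads and 31 RV-Cre reads. All 9 T cell markers examined were present in both libraries, at summed levels of 2002 and 2707 CPM (counts scaled to a common library total) in control and RV-Cre cells. The 6 Th17 markers summed to 159 CPM (control) and 55.0 CPM (RV-Cre), and of the 5 that passed the expression minimum 4 were lower by 2-fold or more. Of all genes past that minimum, 12.3% were lower and 14.2% higher by as much. These shares apply to each count of markers given here. The summed levels of markers of other cells were higher in the RV-Cre library, though not every marker was. The summed level went from 3.04 to 8.78 CPM for the 5 B cell markers (3 at least 2-fold higher, *Pax5* at 0 reads in both), from 32.2 to 69.4 CPM for *Cd8a* and *Cd8b1* (both at least 2-fold higher), from 4.28 to 12.1 CPM for the 5 myeloid markers (1 higher and 1 lower, *Adgre1* at 0 reads in the control library), from 36.5 to 50.6 CPM for the 3 NK cell markers (none at least 2-fold changed past the minimum, *Ncr1* at 0 reads in the control library and *Klrb1c* at 0 in the RV-Cre library) and from 2.68 to 15.03 CPM for the 4 erythroid markers (2 higher, *Hba-a2* at 0 reads in the control library). Of the 7 proliferation markers, 6 were at least 2-fold lower, with summed levels of 2090 CPM (control) and 761 CPM (RV-Cre). Summed levels of the 4 activation markers were 1613 CPM (control) and 998 CPM (RV-Cre), and 2 of them were lower by more than 2-fold. These were *Tfrc*, with 6363 and 2465 reads, and *Myc*, a factor that drives glycolytic genes in activated T cells, with 1678 and 315 reads. *Il2ra*, with 13199 and 8627 reads, and *Cd69*, with 1025 and 872 reads, stayed short of a 2-fold difference. The ribosomal RNA row *Rn45s* held 8.50% of control and 14.6% of RV-Cre reads. The part of these differences in the results that follow was not tested. In RNA pooled from sorted GFP+ cells, fewer cells of a type and less RNA per cell cannot be told apart.

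A single library per group leaves every difference without replicates, so no p-value can be given. Counts were scaled by TMM factors, and the difference between the libraries is given as log2 ratio, that is, log2(normalized count + 1) in the RV-Cre library minus the same in the control library. Ratios without the added 1 are given with 95% intervals by the exact Clopper-Pearson method. Such an interval covers the counting error of 1 pair of libraries and not the spread between cultures. A gene passed the expression minimum at a log2 value of 4 in at least 1 library. Of the 36 genes, 35 passed. The exception was *Eno1*, with 0 reads in both libraries.

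Most genes of glucose metabolism differed little between control and RV-Cre-transduced Th17 cells. Of the 35 genes, 4 lay lower in RV-Cre-transduced cells by 2-fold or more (*Egln3*, *Aldoc*, *Vegfa* and *Tpi1*) and 0 lay higher by as much. The same held for 12.3% (lower) and 14.2% (higher) of all 12112 genes past the minimum, so the share of lower genes among these 35 is near that of all genes. *Tpi1*, at a log2 ratio of -1.07, lay just inside the 2-fold limit, which it no longer passed at -0.98 when *Rn45s* was left out of the totals, at -0.96 with quantile normalization and at -0.65 when scaled to *Gapdh*, and *Pfkm* (-0.93) and *Pfkfb4* (0.95) just outside. At 1.5-fold, 7 genes lay lower and 2 higher, against 22.9% and 23.5% of all genes. The median log2 ratio was -0.15 over the 35 genes and -0.01 over all genes past the minimum. Abundant genes as a whole lay lower. When the minimum was set at a log2 value of 10, the median was -0.12 over the 2859 genes left and -0.022 over the 21 of them followed here. Of these 21, 2 lay lower by 2-fold or more and 0 higher, against 8.67% and 3.99% of the 2859. The counting interval lay wholly below a ratio of 1 for 18 of the 35 genes, against 38.1% of all genes, and wholly above 1 for 10, against 36.7%. Genes of many reads have narrow intervals, and of the 21 abundant genes 10 lay below and 9 above, against 52.5% and 36.2% of all abundant genes. Altogether the 36 genes took 6544 CPM (control) and 6066 CPM (RV-Cre), which after scaling is a ratio of 0.933 (0.924 to 0.942). The plot of ratios by role shows the spread among the groups of genes.

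**Figure D1:**
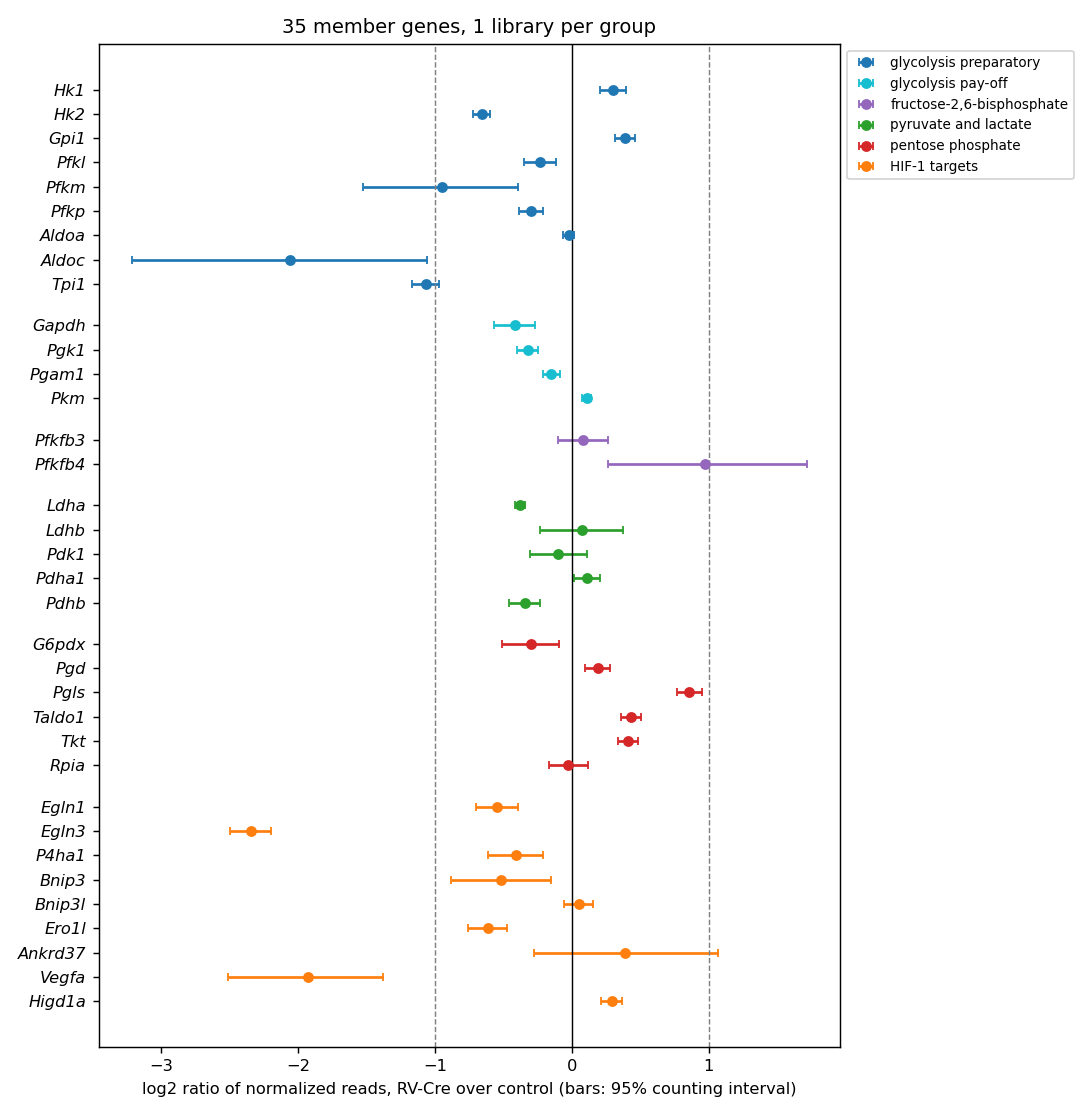
Normalized ratio of RV-Cre over control reads on a log2 axis for the 35 genes past the expression minimum, coloured by role, with bars for the 95% counting interval (1 library per group, no value added to the counts). *Egln3*, *Vegfa*, *Aldoc* and *Tpi1* lie left of the dashed line at -1, no gene lies right of the line at 1, and 4 of the 6 pentose phosphate genes lie above 0 with their whole interval.

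The preparatory phase showed lower levels of the hexokinase induced by activation and of triose phosphate isomerase. *Hk2*, which encodes the inducible hexokinase that traps glucose in the cell, had 5725 control reads and 3218 RV-Cre reads, a log2 ratio of -0.66 and a ratio of 0.634 (0.607 to 0.662). *Hk1*, which encodes the constitutive hexokinase, had 1658 and 1808 reads, a ratio of 1.23 (1.15 to 1.32). The intervals of these hexokinase genes do not overlap, and they lie on opposite sides of 1. *Tpi1*, at chr6:124810586-124814296 on the minus strand (GENCODE M21, GRCm38), encodes the enzyme that interconverts the triose phosphates. It had 2834 and 1198 reads, a ratio of 0.477 (0.446 to 0.511), and 11.1% of all genes past the minimum had a lower log2 ratio. Its end overlaps *Spsb2* on the other strand, which had 116 and 58 reads, and no source used here says that strand was used in counting. *Gpi1*, which encodes the isomerase after hexokinase, was higher, with 2824 and 3269 reads and a ratio of 1.31 (1.24 to 1.37). Of the phosphofructokinase genes, which encode the enzyme of the committed step, *Pfkl* had 1434 and 1082 reads, *Pfkp* 2619 and 1885 and *Pfkm* 87 and 40. All 3 were lower, at log2 ratios of -0.23, -0.30 and -0.93. *Aldoa*, which encodes the aldolase of most tissues, did not differ beyond counting error, with 10095 and 8808 reads and a ratio of 0.985 (0.957 to 1.01). *Aldoc*, which encodes the brain form of aldolase, went from 47 to 10 reads, a ratio of 0.240 with a wide interval of 0.108 to 0.481. For *Pfkp*, all of the 50-base stretches in the last 300 bases of the transcript are also found in a transcript of *Pitrm1* (1170 and 703 reads), which overlaps it on the other strand. Together the 9 preparatory genes had a median log2 ratio of -0.30, with 2 at least 2-fold lower (12.3% of all genes) and 7 neither.

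In the pay-off phase 3 of the 4 genes past the minimum were lower with their whole interval (38.1% of all genes) and 1 was higher (36.7%). Their median log2 ratio was -0.24. *Pkm*, which encodes the pyruvate kinase of activated T cells, had 15003 control reads and 14342 RV-Cre reads, a ratio of 1.08 (1.05 to 1.10). *Pgk1*, which encodes the first ATP-forming enzyme of the pathway, had 3297 and 2337 reads, a ratio of 0.800 (0.758 to 0.844). *Pgam1*, which encodes phosphoglycerate mutase, had 4518 and 3608 reads, a ratio of 0.901 (0.862 to 0.942). None of the 4 genes past the minimum reached a 2-fold difference. Their summed reads had a ratio of 0.993 (0.975 to 1.01), of which *Pkm* held 63.1% in control and 68.6% in RV-Cre-transduced cells. No enolase reads are in this sum, as *Eno1* had 0 reads in both libraries. The 2 rows named *Eno1b*, described below, were left out and had ratios of 0.584 (0.527 to 0.647) and 0.550 (0.494 to 0.611).

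The reads of *Gapdh* and *Eno1* carry a limit, since other genes share their sequence. *Gapdh*, at chr6:125161715-125166467, encodes glyceraldehyde 3-phosphate dehydrogenase and was the reference gene of the study's RT-qPCR. It had 956 control reads and 634 RV-Cre reads, a ratio of 0.748 (0.676 to 0.828) and a log2 ratio of -0.42, so that scaling to *Gapdh* would raise every other log2 ratio by about that amount. In the last 300 bases of its main GENCODE M21 transcript, 82.9% of the 50-base stretches also occur in transcripts of other genes, 99 genes in all, of which 96 are annotated as pseudogenes. *Eno1*, at chr4:150236721-150248879, encodes enolase and was listed at 0 reads in both libraries. A limit of 3 reads would be 0.217 CPM in the control and 0.244 CPM in the RV-Cre library. That limit bounds the level only if reads of *Eno1* were assigned to its own row. Of the 50-base stretches in the last 300 bases of *Eno1*, 90.0% are shared with *Eno1b*, a near-identical gene. The tables have 2 rows named *Eno1b*, with 1105 and 572 reads in the first and 1069 and 521 reads in the second, ratios of 0.584 (0.527 to 0.647) and 0.550 (0.494 to 0.611). Reads of *Eno1* and *Eno1b* cannot be told apart on most of this sequence, and how reads with several alignments were counted is not given in the sources used here. Among the 36 genes, *Pfkp*, *Gapdh*, *Eno1* and *Bnip3* shared at least 50% of their last 300 bases in this sense, 27 shared none, and 9.20% of the 11042 genes past the minimum with a coding transcript shared at least 50%. Whether reads came from the transcript's end or its whole length is not settled by the sources used here. Over the whole transcript, 68.0% of the stretches of *Pgk1*, 41.5% of those of *Pgam1* and 34.4% of those of *Pkm* were shared. Of the other near-identical copies, *Aldoart1* had 62 and 36 reads, *Aldoart2* 1 and 1, *Gapdhs* 0 and 15, and *Pgk2*, *G6pd2* and *Pdha2* 0 in both libraries. The primers and probe that the study used for *Gapdh* are shown because its RT-qPCR values rest on them. All 3 match the transcript exactly, between its bases 948 and 1071. Each also occurs whole in transcripts of 40, 68 and 46 other genes, in the order shown, of which 38, 66 and 44 are annotated as pseudogenes. Each was searched on its own, and whether the study's assay detects any of these genes was not examined.
*Gapdh* sense primer, bases 948 to 968: caatgtgtccgtcgtggatct
*Gapdh* antisense primer, bases 1050 to 1071: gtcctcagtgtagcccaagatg
*Gapdh* probe, bases 971 to 993: cgtgccgcctggagaaacctgcc

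The bifunctional PFKFB enzymes make and break the sugar bisphosphate that activates phosphofructokinase. *Pfkfb3*, the member with the strongest kinase activity, had 523 and 490 reads, a ratio of 1.06 (0.933 to 1.20), and thus did not differ beyond counting error. *Pfkfb4* had 27 and 47 reads, a ratio of 1.96 (1.20 to 3.28), the highest of the 35 genes and just short of 2-fold. It rests on few reads.

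Among the genes of pyruvate and lactate, *Ldha*, which encodes the lactate dehydrogenase subunit that favours lactate formation, was lower in RV-Cre-transduced cells. It had 14848 and 10105 reads, a ratio of 0.768 (0.749 to 0.788). *Ldhb*, which encodes the other subunit, had 191 and 178 reads, a ratio of 1.05 (0.853 to 1.30). *Pdk1*, which encodes a kinase that switches off pyruvate dehydrogenase and is a HIF-1 target, had 419 and 347 reads, a ratio of 0.935 (0.808 to 1.08). Neither differed beyond counting error. The subunits of the first enzyme of the pyruvate dehydrogenase complex differed from each other, as *Pdha1* had 1773 and 1698 reads with a ratio of 1.08 (1.01 to 1.16) and *Pdhb* had 1507 and 1051 reads with a ratio of 0.787 (0.727 to 0.852). *Pdha1* overlaps *Map3k15* (398 and 220 reads) at its end. The summed reads of the 5 genes had a ratio of 0.806 (0.788 to 0.824). *Ldha* held 79.2% of these reads in control and 75.5% in RV-Cre-transduced cells, so the sum mainly reflects that gene. The median log2 ratio of the 5 genes was -0.10.

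Of the 6 pentose phosphate genes, 4 were higher in RV-Cre-transduced cells with their whole interval, which held for 36.7% of all genes, and 1 was lower (38.1% of all genes). *Pgls*, which encodes the lactonase of the oxidative branch and lies at chr8:71592176-71601092, had 1569 control reads and 2518 RV-Cre reads, a log2 ratio of 0.86 and a ratio of 1.81 (1.70 to 1.93). A lower log2 ratio was found for 83.5% of all genes past the minimum and for 94.3% of the 2859 abundant genes. Its end overlaps *Fam129c*, with 18 and 17 reads. *Taldo1* and *Tkt* encode transaldolase and transketolase, the enzymes of the non-oxidative branch that link it to glycolysis. *Taldo1* had 2647 and 3163 reads, a ratio of 1.35 (1.28 to 1.42), and *Tkt* had 2780 and 3279 reads, a ratio of 1.33 (1.27 to 1.40). *Pgd*, which encodes 6-phosphogluconate dehydrogenase, had 1931 and 1949 reads, a ratio of 1.14 (1.07 to 1.21). By contrast *G6pdx*, which encodes the rate-limiting entry enzyme, was lower, with 445 and 320 reads and a ratio of 0.811 (0.701 to 0.939), and *Rpia*, which encodes ribose 5-phosphate isomerase, did not differ beyond counting error, with 845 and 736 reads. None of the 6 reached 2-fold, the median log2 ratio was 0.30, and the summed reads had a ratio of 1.32 (1.29 to 1.36), or 1.23 (1.20 to 1.27) without *Pgls*. The 6 other genes of the pathway past the minimum did not share this direction. Of these, 3 had intervals below 1 (38.1% of all genes) and 1 above (36.7%), and their summed reads had a ratio of 0.922 (0.892 to 0.954). Most of these reads were those of *Prps1*, which encodes the synthetase that activates ribose phosphate for nucleotides and had 5929 and 4792 reads, a ratio of 0.912 (0.878 to 0.948).

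The HIF-1 targets outside glycolysis held the largest difference. *Egln3*, at chr12:54178981-54203860 on the minus strand, encodes the prolyl hydroxylase PHD3. It had 2546 control reads and 444 RV-Cre reads, a ratio of 0.197 (0.178 to 0.218) and a log2 ratio of -2.34. Only 2.11% of all genes past the minimum, and 0.280% of the abundant genes, had a lower log2 ratio, and no other annotated gene shares its exons. *Vegfa*, which encodes an angiogenic growth factor, had 146 and 34 reads, a ratio of 0.263 (0.175 to 0.384). *Egln3* and *Vegfa* were the 2 of these 9 genes lower by 2-fold or more, and 0 were higher, against 12.3% and 14.2% of all genes. A further 4 genes were lower by less than 2-fold. With them, the interval lay wholly below 1 for 6 of the 9 genes (38.1% of all genes). It lay wholly above 1 for 1 (36.7%). *Ero1l*, which encodes an oxidase of the endoplasmic reticulum, had 1115 and 646 reads, a ratio of 0.654 (0.592 to 0.721). *Egln1*, which encodes PHD2, the main HIF hydroxylase, had 944 and 573 reads, a ratio of 0.685 (0.616 to 0.761). *Bnip3*, which encodes a mitophagy receptor, had 166 and 103 reads, a ratio of 0.7002 (0.542 to 0.901), and 55.4% of the 50-base stretches in its last 300 bases are shared with 2 other genes, mostly with *Gm45507*, which overlaps it on the other strand. *P4ha1*, which encodes a collagen prolyl hydroxylase subunit, had 507 and 338 reads, a ratio of 0.752 (0.654 to 0.865). The other members did not share this direction. *Higd1a*, which encodes a small mitochondrial protein induced by hypoxia, was higher, with 2725 and 2952 reads and a ratio of 1.22 (1.16 to 1.29). *Bnip3l*, which encodes the mitophagy receptor NIX, had 1520 and 1394 reads, and *Ankrd37* had 37 and 43 reads. Neither differed beyond counting error, at ratios of 1.03 (0.962 to 1.11) and 1.31 (0.825 to 2.09). The median log2 ratio of the 9 genes was -0.51. Their summed reads had a ratio of 0.759 (0.735 to 0.783), which was 0.959 (0.926 to 0.992) without *Egln3*, with *Egln3* holding 26.2% of these reads in control and 6.80% in RV-Cre-transduced cells.

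**Figure D2:**
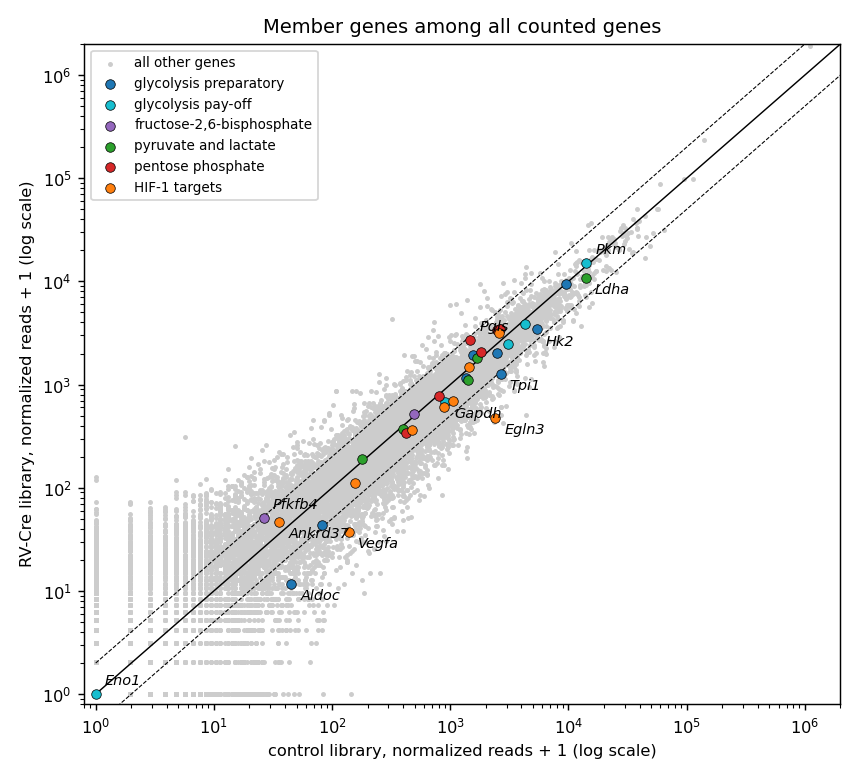
Normalized reads plus 1 of the counted genes in the RV-Cre library (vertical, log scale) against the control library (horizontal, log scale), with the genes followed here coloured by role, the solid line at equal levels and dashed lines at 2-fold. *Egln3* (2546 and 444 reads) lies farthest below the lines among the abundant coloured genes, and *Eno1* lies at the origin with 0 reads in both libraries.

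HIF-1 binds to a core of 5 bases, ACGTG or GCGTG, and the sequence upstream of these genes was searched for it on both strands. RefSeq promoters of GRCm38.p6, the build that the labels name as mm10, were found for 35 of the 36 genes (*Ero1l* as *Ero1a*, without *Bnip3l*), with 50 start sites in all, and the 250 bases upstream of each start were used. ACGTG was present in 38% of these 50 and in 16.6% of all 32851 promoters, and GCGTG in 64% and 28.2%. Some of the genes were chosen as HIF-1 targets, and the comparison was with all promoters rather than those of expressed genes. These shares are therefore no test of enrichment. Of the 9 start sites of the HIF-1 targets outside glycolysis 7 held ACGTG, and of the 7 start sites of the pentose phosphate genes 0 did, while 6 of these held GCGTG. The number of matches varied among the genes. *Egln3*, the gene that differed most, had a single match, *Hk2* had 2, *Ldha* had 5 upstream of its first start site, and *Ankrd37*, which did not differ beyond counting error, had 2 together with 2 matches to GCGTG. *Tpi1* had no match to either. A CACGTG site counts as 2 matches to ACGTG, since it reads the same on both strands. These 4 promoters are shown because they hold the core and include the gene that differed most and a gene that did not differ beyond counting error, with matches to either form of the core in capitals. A match is a description of the sequence and not of binding.
*Egln3* at chr12:54203875-54204124, minus strand: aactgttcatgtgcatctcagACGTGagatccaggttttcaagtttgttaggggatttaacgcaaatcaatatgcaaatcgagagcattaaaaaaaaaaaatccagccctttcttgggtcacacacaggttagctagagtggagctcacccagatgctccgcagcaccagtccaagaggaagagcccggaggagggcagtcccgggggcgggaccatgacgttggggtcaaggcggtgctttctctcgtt
*Hk2* at chr6:82774455-82774704, minus strand: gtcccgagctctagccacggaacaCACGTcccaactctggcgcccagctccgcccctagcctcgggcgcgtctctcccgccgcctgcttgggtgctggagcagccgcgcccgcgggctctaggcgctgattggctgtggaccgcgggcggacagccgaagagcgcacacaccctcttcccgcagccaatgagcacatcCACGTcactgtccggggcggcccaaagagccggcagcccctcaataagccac
*Ldha* at chr7:46845554-46845803, plus strand: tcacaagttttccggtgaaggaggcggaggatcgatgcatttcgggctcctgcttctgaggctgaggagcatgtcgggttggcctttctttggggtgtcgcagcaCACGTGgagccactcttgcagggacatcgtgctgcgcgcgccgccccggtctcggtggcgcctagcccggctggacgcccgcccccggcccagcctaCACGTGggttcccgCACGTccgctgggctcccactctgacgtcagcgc
*Ankrd37* at chr8:45999851-46000100, minus strand: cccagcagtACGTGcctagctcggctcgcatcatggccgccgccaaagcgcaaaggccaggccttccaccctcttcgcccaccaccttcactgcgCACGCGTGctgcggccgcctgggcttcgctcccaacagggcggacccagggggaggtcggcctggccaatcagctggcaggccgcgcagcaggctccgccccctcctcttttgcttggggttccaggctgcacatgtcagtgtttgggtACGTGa

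**Figure D3:**
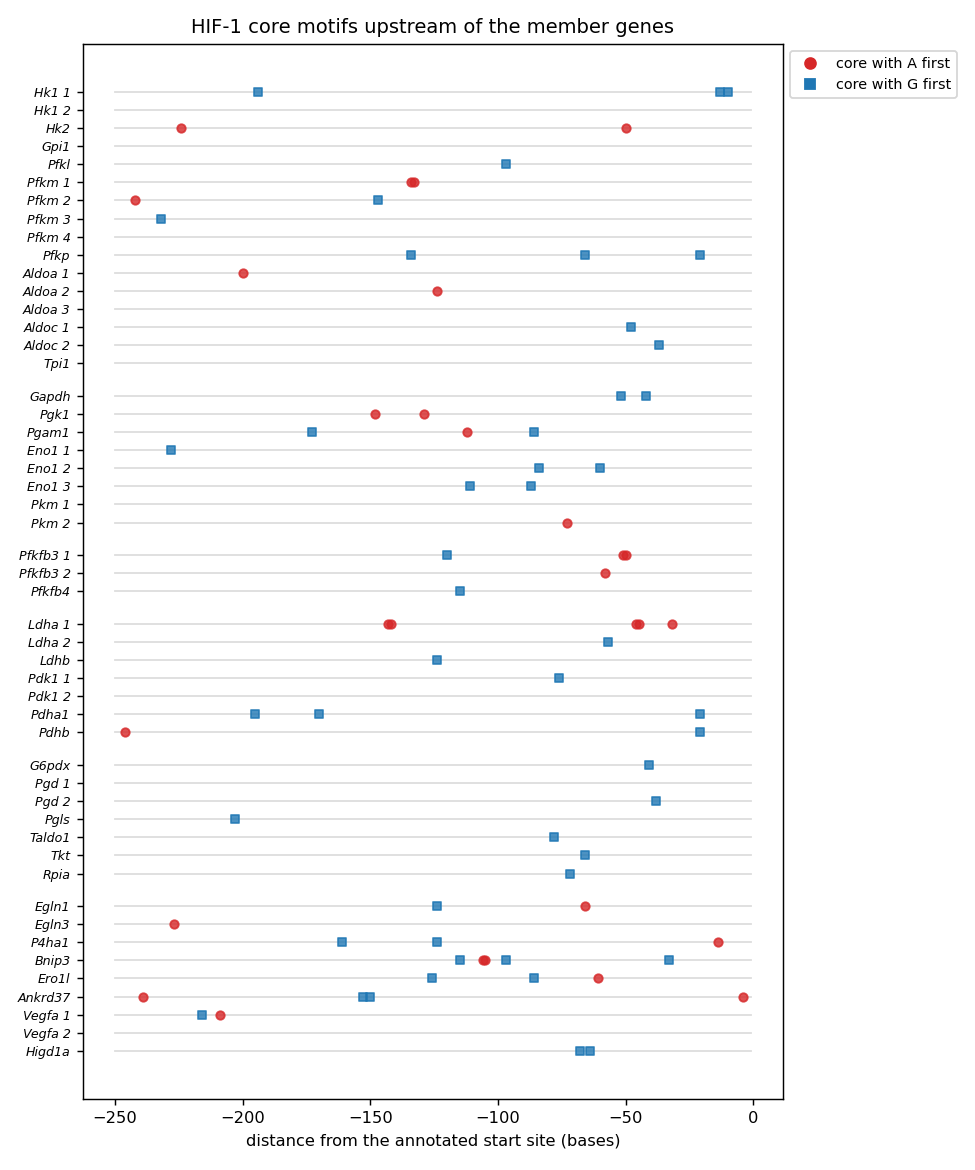
Position of the HIF-1 core upstream of the 50 annotated start sites of 35 genes, as distance from the start site in bases, with circles for the core that begins with A and squares for the core that begins with G (either strand), grouped by role. Circles are present upstream of 7 of the 9 start sites of HIF-1 targets outside glycolysis at the bottom and of 0 of the 7 pentose phosphate start sites above them.

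Shares within an isoenzyme family do not depend on how the libraries are scaled. They are shares of reads, not corrected for transcript length, and serve to compare the libraries rather than the genes. *Hk2* held 77.5% (76.5 to 78.5) of hexokinase reads in control and 64.0% (62.6 to 65.3) in RV-Cre-transduced cells, with *Hk1* holding nearly all others and *Hk3* having 3 and 5 reads. Within the EGLN family, *Egln3* went from 61.1% (59.6 to 62.5) to 27.8% (25.6 to 30.1). *Egln2*, which encodes PHD1, had 680 and 578 reads and its share went from 16.3% to 36.2%. Of the phosphofructokinase reads, *Pfkp* held 63.3% (61.8 to 64.7) and 62.7% (60.9 to 64.4) and *Pfkm* held 2.10% (1.69 to 2.59) and 1.33% (0.952 to 1.81). *Ldha* held 98.7% and 98.3% of lactate dehydrogenase reads. *Pfkfb3* held 78.4% and 79.7% of its family, and in the same family *Pfkfb1* had 65 and 8 reads. Among the pyruvate dehydrogenase kinases, *Pdk3* held 64.0% (61.3 to 66.7) and 56.6% (53.7 to 59.5), and *Pdk2* went from 24 to 159 reads, that is, from 1.94% (1.25 to 2.88) to 13.6% (11.7 to 15.7). *Bnip3l* held 90.2% (88.6 to 91.5) and 93.1% (91.7 to 94.3) of the reads of the mitophagy receptor pair.

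**Figure D4:**
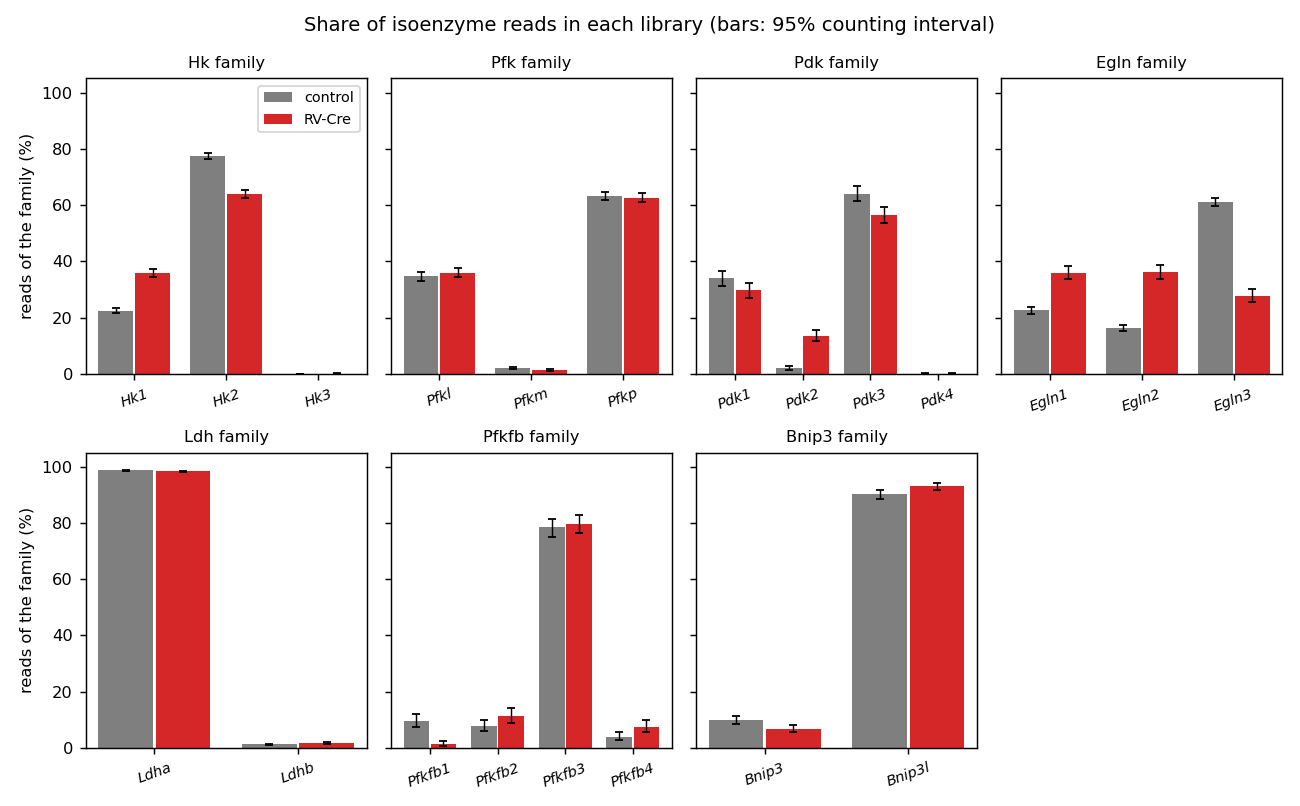
Share of the reads of 7 isoenzyme families, in percent, held by each gene in the control library (grey) and the RV-Cre library (red), with bars for the exact 95% counting interval and 1 library per group. *Hk2* goes from 77.5% to 64.0% and *Egln3* from 61.1% to 27.8%, while *Pfkp*, *Ldha* and *Pfkfb3* stay within 2 percentage points.

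The roles can be set against each other in the same way, as shares of all reads on the 36 genes. The pentose phosphate genes took 11.3% (11.1 to 11.5) of these reads in control and 16.0% (15.8 to 16.3) in RV-Cre-transduced cells. The pay-off genes took 26.3% and 28.03%, with no enolase reads among them. The share was smaller in the RV-Cre library for the pyruvate and lactate genes, 20.7% (20.5 to 21.0) against 17.9% (17.6 to 18.2), for the preparatory genes, 30.3% against 28.6%, and for the HIF-1 targets outside glycolysis, 10.7% against 8.74%. Most of the pyruvate and lactate reads were those of *Ldha*.

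Further genes of the pathway were followed as lists. Of the 6 glucose and lactate transporter genes past the minimum, 1 was lower and 2 were higher by 2-fold or more, against 12.3% and 14.2% of all genes. *Slc2a1*, which encodes the main glucose transporter of activated T cells, had 988 and 436 reads, a ratio of 0.498 (0.444 to 0.558), *Slc2a3* had 167 and 89 reads, a ratio of 0.601 (0.460 to 0.782), and the higher pair, *Slc2a6* and *Slc2a8*, had 38 and 70 and 18 and 37 reads. *Slc16a1*, which encodes a lactate carrier, had 1993 and 1221 reads. In the HIF system, *Hif1a* did not differ beyond counting error, with 5598 and 4967 reads and a ratio of 1.00 (0.964 to 1.04), and neither did *Vhl*, with 343 and 310 reads, or *Arnt*, with 267 and 208. *Hif1an*, which encodes the asparagine hydroxylase that restrains HIF-1, was higher at a ratio of 1.21 (1.08 to 1.36), and *Epas1*, which encodes HIF-2α, had 9 and 35 reads. Of the 22 other HIF-1 targets past the minimum, 2 were lower by 2-fold or more and 0 higher, against 12.3% and 14.2% of all genes, with a median log2 ratio of -0.13. These were *Slc2a1* and *Ak4*, which encodes a mitochondrial adenylate kinase and had 384 and 89 reads, a ratio of 0.262 (0.205 to 0.330), while *Ddit4*, which encodes an inhibitor of mTORC1, and *Gbe1*, which encodes a glycogen branching enzyme, had the highest ratios at 1.53 (1.40 to 1.67) and 1.41 (1.02 to 1.95).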

How the data were processed

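RNA-seq libraries of control and RV-Cre-transduced Th17 cells (1 each) had been made from 500 ng of total RNA with a kit that the labels name as Lexogen QuantSeq, a method that reads transcript ends. The catalogue number beside that name may belong to a kit for whole transcripts, so shared sequence is given for both. The authors deposited raw counts per gene symbol. The submitters' processing notes list bcl2fastq 2.20.0.422, Bowtie2, bedtools and mm10. Read filters, strand and the treatment of multiple alignments are not given in the sources used here. Counts were scaled by TMM (edgeR 4.0.16, R 4.3.3; size factors 1.06 and 0.941). Exact Clopper-Pearson intervals came from scipy 1.17.1. These, and the 3 reads taken as limit where none were counted, cover counting error only, since reads without molecular identifiers are not independent molecules. Calls needed a 2-fold ratio and a log2 value of 4, that is, 15 normalized reads. The procedure was tested on simulated data. Positions and transcripts came from GENCODE M21, promoters from RefSeq GRCm38.p6, primer sequences from the study's supplement. All 36 genes, near-identical copies, and the 2 lowest and highest genes of each other pathway list were named, marker lists are given as sums, and further names were chosen after their values were seen. Part of the list of other glycolytic genes is not reported here. The genes and lists were chosen with earlier results of these data known. Alternatives were other scalings, pseudocounts, minimums, fold thresholds and a 99% interval.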

Additional observations from a re-analysis of the deposited data

How the results depend on the processing

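No paired analysis was possible because there was a single library per group. Library totals, DESeq2 1.42.0 size factors and pseudocounts of 0.1 and 10 left all 35 log2 ratios within their counting intervals. The 4 genes at least 2-fold lower became 7 at a fold threshold of 1.5 (22.9% of all genes) and the 0 higher became 2 (23.5%). Without *Rn45s* in the totals 1 gene (*Pfkfb4*) was at least 2-fold higher, 3 were lower as *Tpi1* left the call at -0.98, the median of the 35 genes was -0.060 and the pay-off median was -0.15. With median centring 1 gene (*Pfkfb4*) was higher. With quantile normalization *Tpi1* left the lower genes at -0.96 and *Pfkm* entered at -1.02, the median of the 35 genes was -0.045 and the medians by role were -0.19 (preparatory), -0.13 (pay-off) and 0.41 (pentose phosphate). Scaling to *Gapdh* moved the median of all genes by 0.44 on the log2 scale. With it the median of the 35 genes turned to 0.27, that of the preparatory genes to 0.12 and that of the pay-off genes to 0.18, while the medians were 0.32 (pyruvate and lactate), 0.72 (pentose phosphate) and -0.10 (HIF-1 targets outside glycolysis), 2 genes (*Pfkfb4* and *Pgls*) were at least 2-fold higher, 3 lower as *Tpi1* left the call at -0.65, and 11 of the 35 log2 ratios changed sign, which the common shift alone gives. With a minimum of 10, chosen after the data were seen, 2 of 21 genes lay lower by 2-fold or more and the median was -0.022, as fewer genes entered. Leaving out the genes whose ends are at least 50% shared, also chosen afterwards, kept the count of 4 lower genes. The median of the 32 genes left was -0.061, against -0.15 over the 35.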

Other observations

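Enzymes next to the routes described above were followed as well. Of the 12 other genes of pyruvate handling past the expression minimum, 1 was at least 2-fold lower and 1 higher, against 12.3% and 14.2% of all genes. Differences of 2-fold or more were thus no more common in this list than among all genes. *Me2*, which encodes the mitochondrial malic enzyme, had 1705 control reads and 622 RV-Cre reads, a ratio of 0.412 (0.375 to 0.452). *Got1*, which encodes the cytosolic aspartate aminotransferase of the malate-aspartate shuttle, had 1875 and 887 reads, a ratio of 0.534 (0.492 to 0.579). In the other direction, *Pdk2* had a ratio of 7.48 (4.85 to 12.0) and *Pdp1*, which encodes the phosphatase that reverses the action of the pyruvate dehydrogenase kinases, had 126 and 184 reads, a ratio of 1.65 (1.31 to 2.08).

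Among other glycolytic and gluconeogenic enzyme genes, those that differed by 2-fold or more had few reads. *Pfkfb1*, with 65 and 8 reads, was lower, and *Minpp1*, with 289 and 147 reads, was the next lowest at a ratio of 0.574 (0.467 to 0.702). *Gapdhs* (0 and 15 reads), *Pklr* (7 and 20 reads) and *Eno2* (40 and 72 reads) were higher, genes known from liver, sperm or nerve cells. Among the 6 other pentose phosphate genes past the minimum, *Rbks*, which encodes ribokinase, was the only one at least 2-fold changed. It had 73 and 157 reads and a ratio of 2.43 (1.83 to 3.25), and 14.2% of all genes were at least 2-fold higher. *Shpk*, which encodes sedoheptulokinase, had 16 and 22 reads. *H6pd* and *Rpe* were the lowest of that list, at 198 and 118 and at 424 and 309 reads.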
